A study of Homo sapiens with 12 samples.

Results

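MP38 is a cell line of uveal melanoma, a cancer of the pigment cells of the eye. The transcriptome described here is that of MP38 after 72 hours in VE-822, the ATR kinase inhibitor also known as berzosertib, against MP38 after 72 hours in DMSO, the solvent. Its members are all 6 MP38 libraries of the 12 in the series, 3 in VE-822 and 3 in DMSO, and all 42342 features of the MP38 count table. The other 6 libraries come from a second uveal melanoma line, 92.1, under the same treatments, and serve only for comparison at the end. The dose of VE-822 is not given in the labels. It was set in each line so that about 40% of the cells were viable at lysis. The labels number the libraries of a group but do not say whether they came from separate cultures, so the spread between them may be technical, and the p-values measure that spread only.

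ATR is the kinase that answers to single-stranded DNA at stalled replication forks, slows the firing of origins and holds cells with unreplicated DNA out of mitosis through CHEK1. Cells kept without its activity enter mitosis early and carry damage and stress into the next cycle. Uveal melanocytes and the tumours that come from them are built around Gq signalling, MITF-driven pigment genes and a neural crest ancestry. The account below covers genes outside mitosis: metabolism, translation, protein turnover, stress, signalling, surface and matrix, lineage, chromatin and RNA.

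All 8 markers of uveal melanocytes were expressed, with a summed level of 4520 to 4690 CPM (counts as a rate of the scaled library size) in DMSO and 5580 to 5593 CPM in VE-822, so the label held in every library. The defining markers of fibroblasts, epithelium, endothelium and leukocytes each summed to at most 4.003 CPM in any library. The markers listed for retinal pigment epithelium summed to 290 to 309 CPM in DMSO and 312 to 359 CPM in VE-822. Nearly all of that came from BEST1 and RLBP1, while RPE65, which defines that cell, had 0.126 and 0.0529 CPM. Markers of Schwann cells and neurons, which share the neural crest origin, summed to 746 to 815 CPM in DMSO and 538 to 573 CPM in VE-822. MBP, of that list, went the other way, from 51.4 to 112 CPM. The part of such expression in the results below was not tested. In RNA from a whole culture, fewer cells that express a gene and less of its RNA per cell cannot be told apart.

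Totals were 61045071 to 63638976 counts in DMSO and 54415628 to 60891725 in VE-822. Among genes of at least 5 CPM, the first principal component held 92.3% of the variance and parted the treatments. Library 3 of each group stood apart from the other 2, since the mean chi-square over genes was 6.23 to 8.03 for pairs with library 3 and 2.39 and 2.56 for libraries 1 and 2. Of 11194 calls in the full comparison, 9921 were also made without both libraries numbered 3, where 10854 genes were called. None of the 9921 had an opposite sign, but the fits share their other libraries, so few changes of sign could occur. Mitochondrially encoded genes took 7.02% ± 0.223 of counts in DMSO and 8.59% ± 0.0997 in VE-822 (SD, n = 3 libraries per group, as for every mean ± SD of MP38 below). The 100 most abundant nuclear genes took 18.1% ± 0.282 and 15.9% ± 0.455. Each of these shares had groups that did not overlap, and each gave p = 0.1 in a two-sided exact permutation test, the smallest that 3 against 3 can give.

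Treatment reached a majority of the tested genes. Of 42342 features, 21415 had enough counts to test, and edgeR's quasi-likelihood test, with Benjamini-Hochberg adjustment over all of them, called 5750 higher in VE-822 (26.9%) and 5444 lower (25.4%) at an adjusted p under 0.05, 52.3% in all. The groups did not overlap at 58.7% of tested genes. Among the 11487 genes of at least 5 CPM, where most members of the lists below lie, 36.8% were called higher and 33% lower (69.8% either way), 73.9% had groups that did not overlap, and the median log2 fold change was 0.02. Those percentages are the background for every list count that follows, and a list near them on both sides is like the rest of the transcriptome. Most shifts were small, since 979 of the higher and 523 of the lower genes had log2 fold changes of at least 1 in size. "Rose" and "fell" are used only of called genes, fold changes are log2 of VE-822 over DMSO with their standard error (SE), and list counts are descriptions of lists written with earlier results of these data known.

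**Figure D1:**
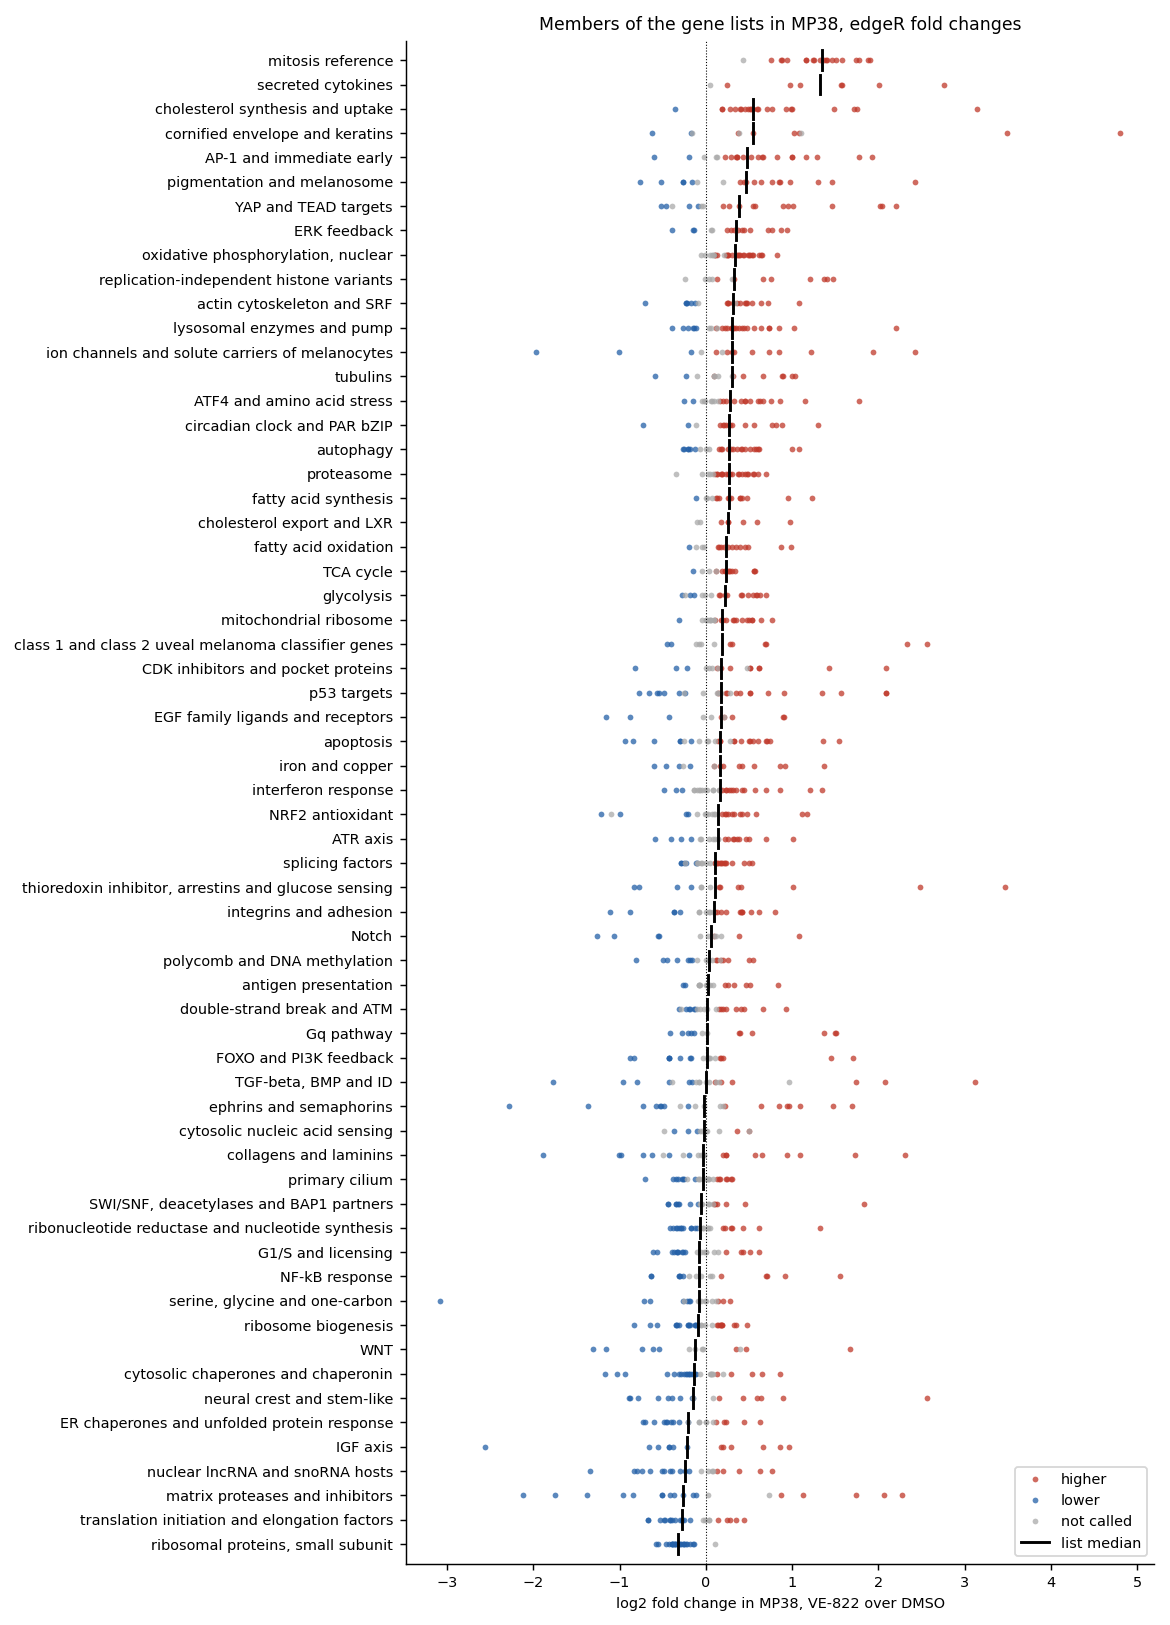
Log2 fold change in MP38 (horizontal axis, VE-822 over DMSO) of every tested member of 62 gene lists, one list per line, coloured by call, with the list median as a black bar. Mitosis genes, kept as a reference, have a median of 1.34 and small-subunit ribosomal proteins one of -0.32. The 8 cytokines tested, of 23 listed, have a median of 1.32, but a cytokine near 0 in DMSO could be tested through VE-822 alone.

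Short and abundant transcripts were called higher more often than long and scarce ones. In quintiles of annotated feature length, over protein-coding genes at or above 5 CPM, 47.8% of the shortest quintile were called higher and 24.6% lower, against 34.0% and 35.3% of the longest. In quintiles of mean level, the share called higher went from 28.5% in the lowest to 45.6% in the highest, while the share called lower stayed between 31.4% and 33.7%. By class, 33.6% of tested protein-coding genes were called higher and 29.2% lower (62.8% in all, with groups apart at 67.8%), whereas long noncoding RNAs had 15.1% and 17.8% and pseudogenes 10.4% and 19.2%. Library size was scaled by TMM factors. With total counts alone 5085 genes were higher and 6070 lower, so which side held more calls turned with the scaling.

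**Figure D2:**
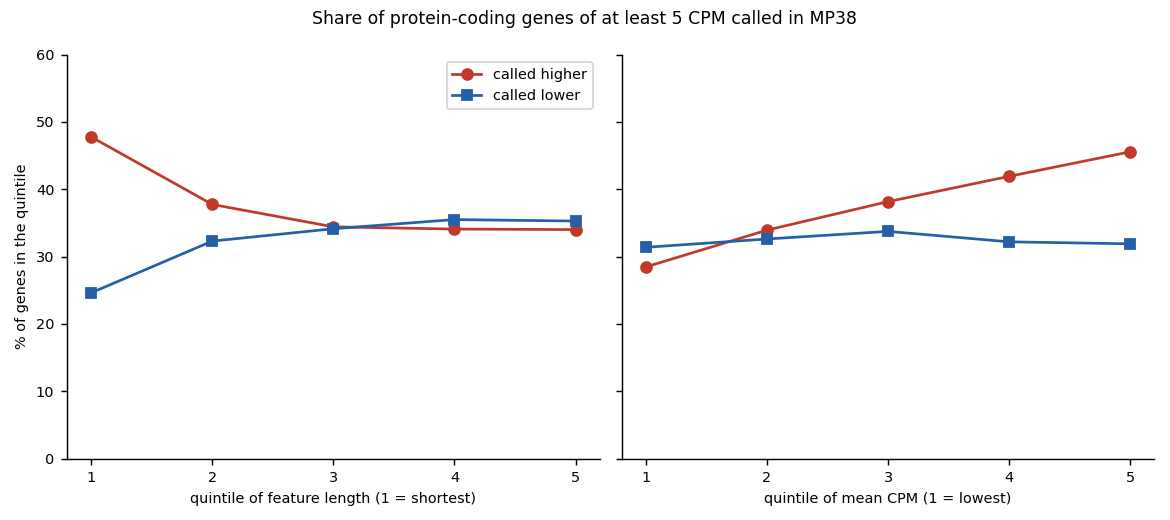
Percentage of protein-coding genes of at least 5 CPM called higher (circles) and lower (squares) in VE-822, by quintile of annotated length (left) and by quintile of mean CPM (right). The share called higher is 47.8% in the shortest quintile and 34.0% in the longest, and goes from 28.5% to 45.6% with level.

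Among metabolic genes, the largest rise was in TXNIP (ENSG00000265972.6, chr1:145992435-145996579, minus strand), an arrestin-like protein that binds thioredoxin and lowers glucose uptake. TXNIP stood at 16.6, 17.9 and 27.3 CPM in DMSO and 228, 225 and 229 CPM in VE-822. The VE-822 libraries agreed closely and lay far above DMSO, where library 3 was the highest. The fold change was 3.46 ± 0.106 (adjusted p = 7.06e-16), and per length the level went from 5.79 ± 1.63 to 62.2 ± 0.992 FPKM, the deposited value divided by length. ARRDC4, its closest relative among the arrestin-domain proteins and like it a target of the glucose-sensing factors MondoA and MLX, stood at 9.41, 8.998 and 9.93 CPM in DMSO and 53.9, 49.8 and 54.4 CPM in VE-822, again with no overlap, a fold change of 2.48 ± 0.0536. ARRDC3, a further arrestin, went the other way and fell from 61.1 ± 4.95 to 34.3 ± 1.12 CPM (-0.83 ± 0.0513). KLF10, a zinc finger repressor, rose by 1.01 ± 0.0567. In the list of arrestins, MondoA factors and glucose uptake genes, 7 of 14 members were higher and 4 lower.

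Both this group and sterol metabolism hold classical targets of E-box-binding factors. The largest sterol fold change (3.14) was of a gene below 5 CPM, which is not shown. Promoters are shown for the genes of each group that moved most at or above that level. They are RefSeq sequence of GRCh38.p14, 5′ to 3′ on the strand of the gene, from the window of 250 bases before to 50 after the annotated start, with the searched motif in capitals. In TXNIP the capitals are a pair of E-box-like elements, each CACGNG and with 5 bases between them, beginning 88 bases before the start, at chr1:145996611-145996707 on the minus strand. In ARRDC4 they are an E-box (CACGTG) beginning 210 bases before it, at chr15:97960453-97960538 on the plus strand, and in INSIG1 an E-box beginning 55 bases before it, at chr7:155297783-155297868 on the plus strand.
TXNIP: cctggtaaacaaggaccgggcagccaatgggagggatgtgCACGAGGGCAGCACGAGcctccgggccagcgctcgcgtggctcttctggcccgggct
ARRDC4: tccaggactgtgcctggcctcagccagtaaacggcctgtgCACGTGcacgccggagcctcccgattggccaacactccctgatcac
INSIG1: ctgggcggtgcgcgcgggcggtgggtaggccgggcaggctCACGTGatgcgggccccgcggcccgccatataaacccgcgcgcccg
The paired element, searched on both strands after TXNIP's values were known, was in a promoter of 16 of the 8744 protein-coding genes of at least 5 CPM that had one, TXNIP included, and in 0.0570% of all RefSeq promoter windows. The single E-box was far commoner, in 14.0% of 172 genes called higher by at least 1, 10.4% of 67 called lower by at least 1, 13.2% of all 8744 and 7.26% of all RefSeq promoter windows. Of 17 genes of cholesterol synthesis and uptake with a window, 3 held the E-box, INSIG1 among them. A sterol element (TCACCCCAC), searched in the same windows, was in 1 of the 17, SREBF2, and not in INSIG1.

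Glycine metabolism held the largest fall among genes of at least 5 CPM. GLDC (ENSG00000178445.10, chr9:6532467-6645729), the decarboxylase that starts glycine cleavage in mitochondria, stood at 50.2, 49.9 and 51.7 CPM in DMSO and 6.46, 5.46 and 6.04 CPM in VE-822. The libraries of each group were close together and the groups far apart, with a fold change of -3.08 ± 0.0577 (adjusted p = 1.15e-18). Around it, the cytosolic serine hydroxymethyltransferase SHMT1 fell by 0.72 ± 0.0639, and the glycine transporter SLC6A9 by 0.65 ± 0.0574. PSPH, the last step of serine synthesis, rose by 0.27 ± 0.0461. Of 18 tested genes of serine, glycine and one-carbon metabolism, 3 were higher and 7 lower. In nucleotide synthesis 7 of 25 rose and 12 fell, with the salvage and thymidylate enzymes TK1 (1.32 ± 0.0415) and TYMS (0.62 ± 0.0530) and the reductase subunit RRM1 (0.43 ± 0.0423) higher and DHODH (-0.41 ± 0.0440), a step of pyrimidine synthesis, lower.

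Sterol genes rose almost without exception. Of 23 genes of cholesterol synthesis and uptake, 22 were called higher and 1 lower, with a median of 0.55; the exception was NSDHL, a sterol dehydrogenase (-0.35 ± 0.0577), named after its value was seen. INSIG1, which holds the sterol sensor in the endoplasmic reticulum and is itself induced when sterols are low, stood at 14.5, 15.6 and 15.3 CPM in DMSO and 51.6, 52.2 and 49.5 CPM in VE-822, and no DMSO library came near the VE-822 range (1.75 ± 0.0468). STARD4, a carrier of cholesterol between membranes, rose by 1.49 ± 0.0811, and MSMO1, an oxidase of the pathway, by 1.00 ± 0.0629. Genes of cholesterol export moved in the same direction and by less: 6 of 8 tested were higher and none lower, among them the lipoprotein receptor SCARB1 (0.97 ± 0.0357), NPC2 of the lysosome (0.60 ± 0.0457), APOE (0.43 ± 0.0487) and NR1H3, the liver X receptor that senses oxysterols (0.26 ± 0.0614). Fatty acid synthesis had 12 of 16 members higher and 1 lower. SCD, the desaturase that makes monounsaturated fatty acids, was among the 10 largest gains in level, at 636, 633 and 634 CPM in DMSO and 1269, 1259 and 1156 CPM in VE-822; library 3 of VE-822 was the lowest of its group and still far above DMSO. The acyl-CoA synthetases ACSL3 (1.23 ± 0.0404), ACSL1 (0.48 ± 0.0385) and ACSL4 (0.42 ± 0.04004) rose with it. Fatty acid breakdown rose too, in 12 of 16 members with 1 lower: PPARGC1A, a coactivator of mitochondrial genes, by 0.98 ± 0.0729, the trifunctional protein HADHA by 0.49 ± 0.0398, ACADS by 0.45 ± 0.0696 and ETFA by 0.39 ± 0.0356. The members that fell, again named after their values were seen, were the desaturase FADS1 (-0.11 ± 0.0352) and CPT1A, which admits fatty acids to mitochondria (-0.20 ± 0.0368). Against these stood 2 lipid enzymes among the 20 largest decreases, the monoacylglycerol lipase MGLL (32.4 ± 1.12 to 11.3 ± 1.03 CPM, -1.52 ± 0.0601) and the acyl-CoA synthetase ACSBG1 (8.86 ± 0.627 to 3.02 ± 0.404 CPM, -1.55 ± 0.0989).

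Mitochondrial energy genes of the nuclear genome rose together by small amounts. Of 30 subunits of the respiratory chain and ATP synthase, 23 were called higher and none lower, with a median of 0.34. COX6C of cytochrome oxidase stood at 35.5, 33.9 and 38.2 CPM in DMSO and 62.2, 62.7 and 66.0 CPM in VE-822, the largest rise among them at 0.83 ± 0.0458. Of complex III, UQCRFS1 rose by 0.65 ± 0.0411, UQCRC1 by 0.64 ± 0.0428 and UQCRQ by 0.62 ± 0.0496. In the TCA cycle 13 of 17 were higher and 1 lower (median 0.23), led by MDH1 (0.57 ± 0.0367), OGDH (0.56 ± 0.0391), SUCLG2 (0.55 ± 0.0405) and SUCLG1 (0.34 ± 0.0372). The mitochondrial ribosome had 14 of 24 higher and 1 lower, with MRPL39 (0.77 ± 0.0497), MRPS7 (0.64 ± 0.0416), MRPS5 (0.54 ± 0.0376) and MRPL15 (0.53 ± 0.0404) the largest. Glycolysis had 12 of 19 higher and 3 lower, with ALDOA (0.70 ± 0.0497), PGAM1 (0.59 ± 0.0364), TPI1 (0.58 ± 0.0373) and ENO2 (0.63 ± 0.0733) at the top; ENO1 (from 1681 ± 31.9 to 2366 ± 70.2 CPM) and PKM (from 1687 ± 18.1 to 2259 ± 34.4 CPM) were among the 10 largest gains in level. By length, 20 of the 30 respiratory genes lie in the shortest quintile, of which 17 were higher, against 6 of the 10 longer ones. For the mitochondrial ribosome 9 of 16 genes in that quintile were higher against 5 of 8 longer ones, and for glycolysis 2 of 4 against 10 of 14. The part of length was not tested.

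Cytosolic translation went the other way. All but 1 of the 25 small-subunit ribosomal protein genes fell (24 lower, none higher, median -0.32), among them RPS3A (-0.57 ± 0.0478), RPS18 (-0.56 ± 0.0478), RPS12 (-0.46 ± 0.0489) and RPS6 (-0.42 ± 0.0501). RPS15, singled out as the exception, had 0.10 ± 0.0445 (adjusted p = 0.0564). These are short genes too, 14 of 25 in the shortest quintile, and they moved against that trend. The 82 cytosolic ribosomal protein genes together held 9.74% ± 0.241 of the DMSO counts and 7.47% ± 0.327 of those in VE-822 (two-sided exact permutation p = 0.1). EEF2, the translocase of the elongating ribosome, stood at 8946, 8896 and 9344 CPM in DMSO and 5368, 5499 and 6278 CPM in VE-822; every VE-822 library was below every DMSO library, and VE-822 library 3 was the highest of its group. EEF1A1, which brings charged tRNA to the ribosome, had the largest loss in CPM of any nuclear gene, at 13880.1, 13439 and 14964 CPM in DMSO and 10197, 10072 and 11381 CPM in VE-822 (-0.42 ± 0.0528); per length it went from 1418 ± 74.5 to 1033 ± 47.8 FPKM. EEF1B2, its exchange factor, fell from 329.7 ± 11.3 to 207 ± 16.9 CPM, EIF3L of initiation factor 3 from 391 ± 15.3 to 269.8 ± 17.2 CPM, and PABPC1, which binds poly(A) tails, from 2381 ± 82.0 to 1709 ± 62.3 CPM. In all, 14 of 23 translation factors were lower and 5 higher (median -0.28). Making of ribosomes was mixed, with 10 of 29 members higher and 15 lower: the processing factor RRP9 (-0.83 ± 0.0415), the RNA polymerase I subunit POLR1B (-0.65 ± 0.0376) and PPAN (-0.35 ± 0.0510) fell, and LYAR rose (0.47 ± 0.0431). EEF1A1 and the ribosomal protein genes have many processed pseudogenes, to which some of their reads could be assigned. The part of such reads was not tested. Pseudogenes of all genes together took 0.722% ± 0.00314 of counts in DMSO and 0.668% ± 0.00786 in VE-822.

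**Figure D3:**
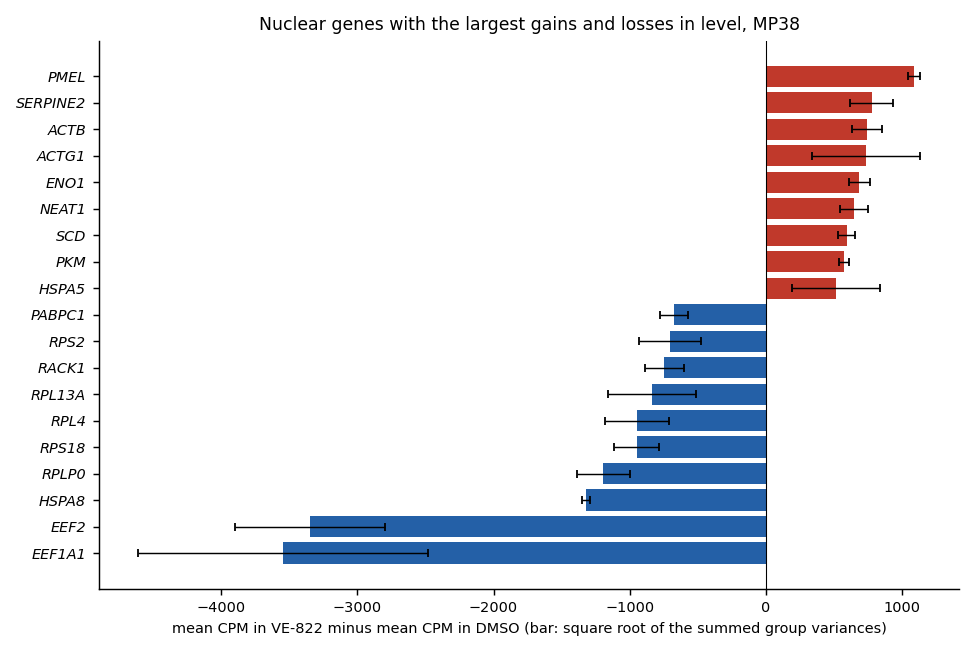
Difference in mean CPM, VE-822 minus DMSO, for 9 of the 10 nuclear genes with the largest gain and the 10 with the largest loss in MP38; the error bar is the square root of the summed variances of the groups (n = 3 each). The losses are led by EEF1A1 and EEF2, elongation factors, and PMEL, a melanosome protein, has the largest gain shown.

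Genes of protein breakdown rose. Of 26 proteasome subunits, 21 were higher and none lower, with a median of 0.26. PSMA7, of the outer ring of the core, stood at 168, 159 and 159.7 CPM in DMSO and 254, 261 and 276 CPM in VE-822, with no overlap between groups (0.70 ± 0.0402). PSMD14, the deubiquitinase of the lid, rose by 0.60 ± 0.0385, and the core subunits PSMB3 and PSMB1 by 0.55 ± 0.0458 and 0.55 ± 0.0377. Lysosomal enzymes and the proton pump had 20 of 29 higher and 6 lower, with the pump subunit ATP6V1B2 (1.02 ± 0.0364), the ceramidase ASAH1 (0.84 ± 0.0362), and the glycosidase GLA (0.73 ± 0.0418) among the largest. Autophagy had 17 of 26 higher and 6 lower. MAP1LC3B, whose protein coats the autophagosome, stood at 111, 113 and 107 CPM in DMSO and 206, 204 and 255 CPM in VE-822, highest in VE-822 library 3. SQSTM1, the cargo receptor, rose by 0.62 ± 0.0554, WIPI1 by 0.59 ± 0.0515 and ATG5 by 0.60 ± 0.0489.

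Chaperones of the cytosol fell more often than they rose. HSPA8, the constitutive HSP70, stood at 2402, 2359 and 2383 CPM in DMSO and 1066, 1079 and 1037 CPM in VE-822, tight within each group and wide apart between them (fold change -1.17 ± 0.0393, adjusted p = 2.62e-15). The inducible HSP70 genes fell as well, HSPA1A by 0.94 ± 0.0465, HSPA1B by 1.02 ± 0.0608 and HSPA6 from 21.1 ± 1.46 to 6.26 ± 0.518 CPM (-1.75 ± 0.0719); HSPA1A and HSPA1B are near-identical copies, so the split of reads between them is uncertain. CRYAB, a small heat shock protein, rose from 109 ± 2.59 to 198 ± 2.67 CPM. Over the list of cytosolic chaperones and the chaperonin, 16 of 28 were lower and 5 higher; without both libraries numbered 3, 8 were higher. Heat shock genes are driven by HSF1 through inverted repeats of GAA, and the promoter of HSPA8 held 2 matches to a heat shock element of 3 such repeats, on either strand and shown in capitals. They begin 230 and 55 bases before the start, within chr11:123062314-123062386 and chr11:123062139-123062231 of GRCh38.p14, minus strand, in RefSeq sequence.
HSPA8 distal: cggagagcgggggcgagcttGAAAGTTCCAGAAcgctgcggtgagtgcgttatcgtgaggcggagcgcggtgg
HSPA8 proximal: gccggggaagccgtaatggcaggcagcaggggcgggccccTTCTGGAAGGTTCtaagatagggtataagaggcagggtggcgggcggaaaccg
The element was in a promoter of 7 of the 25 cytosolic chaperone genes with a RefSeq window. HSPA1A and HSPA1B, which also fell, had a window and no match. Of the 8744 genes of at least 5 CPM, 0.457% held the element, as did 0.490% of all windows. A match of letters is a description and shows no binding.

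The list of amino acid stress held mostly rises, and that of folding stress in the endoplasmic reticulum more falls than rises. The ATF4 pathway, which cells use when amino acids run short, had 15 of 24 members higher and 2 lower (median 0.28). DDIT3, which encodes the transcription factor CHOP, stood at 77.7, 73.5 and 50.8 CPM in DMSO and 138, 139.7 and 170.4 CPM in VE-822, with DMSO library 3 lowest and VE-822 library 3 highest of all. The stress factor NUPR1 rose by 0.86 ± 0.0685, the alanyl-tRNA synthetase AARS1 by 0.76 ± 0.0432 and the pseudokinase TRIB3 by 0.66 ± 0.0785. Several core members did not pass, chosen here after their values were seen: ATF4 itself had 0.06 ± 0.0464, the asparagine synthetase ASNS -0.04 ± 0.0437, the cystine carrier SLC7A11 -0.01 ± 0.0575 and CHAC1 0.14 ± 0.0793. Chaperones of the endoplasmic reticulum, induced by unfolded protein, had 5 of 21 higher and 10 lower. CRELD2 stood at 88.1, 88.3 and 56.1 CPM in DMSO and 44.7, 47.1 and 48.2 CPM in VE-822 and MANF at 87.2, 87.0 and 52.7 CPM in DMSO and 46.0, 45.9 and 47.3 CPM in VE-822: in both, DMSO library 3 lay far below DMSO libraries 1 and 2, and the groups still did not overlap. SDF2L1 stood at 44.2, 45.6 and 25.6 CPM in DMSO and 24.2, 27.4 and 24.6 CPM in VE-822, where DMSO library 3 fell inside the VE-822 range. HSPA5, the main chaperone of that compartment, stood at 1087, 1065 and 694 CPM in DMSO and 1327, 1321 and 1735 CPM in VE-822, a fold change of 0.62 ± 0.117 that was 0.30 without both libraries numbered 3. With robust estimation of the spread, HSPA5 and MANF lost their call (edgeR adjusted p = 0.0941 and 0.065) and the list had 3 members lower.

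Antioxidant genes under NRF2 had 12 of 24 higher and 4 lower. The peroxidase PRDX1 stood at 51.4, 48.3 and 52.4 CPM in DMSO and 117, 113 and 113 CPM in VE-822, with groups far apart (1.17 ± 0.03998). OSGIN1 rose by 1.12 ± 0.0661, the thioredoxin reductase TXNRD1 by 0.58 ± 0.0353 and NFE2L2, which encodes NRF2 itself, by 0.48 ± 0.0417. Of iron and copper genes, 9 of 15 tested were higher and 4 lower: the metal-binding MT2A rose from 124 ± 4.62 to 319 ± 16.9 CPM, the iron importers SLC11A2 and TFRC by 0.92 ± 0.0644 and 0.86 ± 0.0425, and the zinc importer SLC39A10 fell (-0.60 ± 0.0524).

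Arrest and damage genes were mixed in MP38. CDKN1A, the p21 inhibitor of cyclin-dependent kinases, stood at 10.5, 11.04 and 9.57 CPM in DMSO and 39.3, 40.3 and 52.6 CPM in VE-822, and GADD45A, which acts in growth arrest, at 44.7, 44.3 and 36.4 CPM in DMSO and 157, 165 and 209 CPM in VE-822; in both, VE-822 library 3 was the highest. CDKN2B, another inhibitor of these kinases, rose by 1.43 ± 0.0724 and CDKN2C by 0.62 ± 0.0517, whereas CDKN1C fell by 0.82 ± 0.0483. The p53 target list had 14 of 27 higher and 7 lower, with PHLDA3, which restrains AKT, lower (-0.57 ± 0.0674). Among genes of cell death 15 of 27 rose and 6 fell. The survival protein BCL2A1 rose from 62.2 ± 3.08 to 159 ± 2.88 CPM and the BH3-only PMAIP1 by 0.74 ± 0.0523, while the BH3-only BCL2L11 fell (-0.84 ± 0.0556). Genes of G1/S and origin licensing had 5 of 22 higher and 10 lower. In double-strand break repair 9 of 21 rose and 6 fell, XRCC4 of end joining by 0.92 ± 0.0548 and MDC1 by 0.45 ± 0.0373. On the ATR axis 10 of 21 were higher and 4 lower, and ATR itself stood at 54.3, 54.3 and 54.9 CPM in DMSO and 46.3, 45.5 and 41.9 CPM in VE-822 (-0.29 ± 0.0429). RPA1 and RPA3, subunits of 1 complex that coats single-stranded DNA, moved in opposite directions (-0.59 ± 0.0391 and 0.70 ± 0.0729).

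Secreted cytokines rose where they could be tested. Of 23 cytokines listed, 8 had enough counts to test, and 7 of these were higher and none lower, VEGFA being the one not called. A cytokine near 0 in DMSO could pass the count filter only through VE-822, so that count supports nothing by itself. IL24 stood at 3.11, 3.04 and 3.14 CPM in DMSO and 20.1, 18.9 and 24.0 CPM in VE-822, LIF at 13.6, 14.1 and 11.7 CPM in DMSO and 45.5, 49.0 and 64.2 CPM in VE-822 and GDF15, a stress cytokine, at 139, 142 and 108 CPM in DMSO and 335, 354 and 459 CPM in VE-822; in each the groups were apart and VE-822 library 3 was the highest. CSF1, the macrophage growth factor, rose by 0.24 ± 0.0557. The NF-kB feedback and target genes did not rise as a group: 5 of 16 were higher and 6 lower, TNFAIP3 (1.56 ± 0.0762) and NFKBIZ (0.70 ± 0.0420) rising, BCL3 (-0.64 ± 0.0694) and NFKBIE (-0.64 ± 0.0531) falling. Interferon-stimulated genes had 15 of 30 higher and 3 lower, at low levels. OAS2, which senses double-stranded RNA, stood at 9.92, 9.06 and 9.79 CPM in DMSO and 24.7, 23.0 and 18.5 CPM in VE-822. IFI27 stood at 9.74, 10.5 and 6.72 CPM in DMSO and 27.0, 29.4 and 11.8 CPM in VE-822, so its mean rise rested on VE-822 libraries 1 and 2, and its call was lost with robust estimation of the spread (edgeR adjusted p = 0.0641). IFIT2 and IFIT3 rose by 0.69 ± 0.0734 and 0.57 ± 0.04001. The cytosolic DNA sensor CGAS rose by 0.50 ± 0.0604 and the kinase TBK1 by 0.36 ± 0.0502, while the adaptor MAVS (-0.37 ± 0.0358) and the nucleotidase SAMHD1 (-0.20 ± 0.0447) fell. Antigen presentation had 6 of 17 higher and 2 lower, with HLA-F (0.52 ± 0.0481) and the peptidase ERAP2 (0.47 ± 0.0468) higher and the transporter TAP2 lower (-0.27 ± 0.0428).

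Immediate early and ERK-driven genes rose. Of 22 members of the AP-1 and immediate early list, 17 were higher and 2 lower (median 0.48). FOSL1, an AP-1 subunit that marks sustained ERK activity, stood at 55.2, 54.9 and 48.6 CPM in DMSO and 162, 169.8 and 212 CPM in VE-822. NR4A3, an orphan nuclear receptor, stood at 4.64, 4.99 and 4.79 CPM in DMSO and 20.4, 20.4 and 13.9 CPM in VE-822, with VE-822 library 3 the lowest of its group, opposite to FOSL1. KLF6 rose by 1.16 ± 0.0368 and EGR1 by 1.29 ± 0.0959. Feedback genes of ERK had 11 of 16 higher and 3 lower: PHLDA1 stood at 222, 222 and 222 CPM in DMSO and 419, 416 and 442 CPM in VE-822, and SPRY1 rose by 0.87 ± 0.0672, DUSP6 by 0.77 ± 0.0431 and DUSP10 by 0.72 ± 0.0532. Around the Gq pathway, RGS20, which switches G proteins off, rose by 1.49 ± 0.0499 and ARF6 and TRIO by 0.53 ± 0.0387 and 0.39 ± 0.0368, while the protein kinase C gene PRKCA fell (-0.41 ± 0.0417). GNAQ itself stood at 48.2, 49.2 and 50.7 CPM in DMSO and 46.5, 44.9 and 43.6 CPM in VE-822, a small difference (-0.13 ± 0.0413, adjusted p = 0.0110) that was not called without both libraries numbered 3 (adjusted p = 0.0614).

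YAP and TEAD targets had 12 of 19 higher and 4 lower (2 lower without DMSO library 1 or VE-822 library 2), with MYOF, a membrane-repair protein, at 16.5, 16.4 and 17.3 CPM in DMSO and 66.7, 65.5 and 73.5 CPM in VE-822. CCN1 rose by 1.46 ± 0.0640, the ectonucleotidase NT5E by 1.01 ± 0.0381 and the YAP-inhibiting kinase LATS2 by 0.95 ± 0.0489. The TGF-beta, BMP and ID list was even, with 6 of 21 higher and 6 lower. ID3, an inhibitor of differentiation induced by BMP, stood at 50.3, 51.3 and 49.3 CPM in DMSO and 14.8, 15.2 and 14.4 CPM in VE-822, with little spread in either group (-1.77 ± 0.0459). ID1 fell by 0.96 ± 0.0734, and PMEPA1, a feedback inhibitor of TGF-beta signalling, from 29.4 ± 0.680 to 10.7 ± 0.699 CPM. KCP, a secreted modulator of BMP, went in the opposite direction, at 4.71, 5.86 and 5.17 CPM in DMSO and 41.6, 42.2 and 52.3 CPM in VE-822 (3.11 ± 0.0870). Of WNT genes 3 of 13 rose and 5 fell, and of Notch genes 3 of 12 rose and 4 fell (5 rose without VE-822 library 1). Those that fell included the WNT-dependent transcription factors TCF7 (-1.15 ± 0.0749) and LEF1 (-0.61 ± 0.0382), the receptor FZD7 (-0.74 ± 0.0471), the secreted antagonist SFRP1 (-1.31 ± 0.0430) and NOTCH1, which stood at 86.5, 89.7 and 88.7 CPM in DMSO and 37.8, 34.5 and 38.3 CPM in VE-822. The Notch ligand JAG1 rose by 1.08 ± 0.0526.

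Growth factor and guidance genes moved both ways, 8 of 21 ephrin and semaphorin genes higher and 8 lower, and 6 of 13 insulin and IGF genes higher and 7 lower. The ephrin receptor EPHB3 stood at 22.3, 21.9 and 20.6 CPM in DMSO and 4.61, 4.37 and 4.38 CPM in VE-822 (-2.28 ± 0.0664), and EPHA5 rose from 3.18 ± 0.141 to 10.3 ± 1.08 CPM. The semaphorins SEMA3B and SEMA3C moved apart (-1.37 ± 0.0447 and 0.96 ± 0.0405). IGFBP5, which binds insulin-like growth factors outside the cell, stood at 25.2, 24.9 and 27.7 CPM in DMSO and 4.48, 4.17 and 4.52 CPM in VE-822 (-2.56 ± 0.0682); IGFBP2 fell (-0.65 ± 0.0531) and IGFBP7 rose (0.97 ± 0.0405). ERBB3, the neuregulin receptor of neural crest cells, fell from 1002 ± 18.3 to 546 ± 17.0 CPM, the EGF receptor ligand TGFA from 23.8 ± 0.737 to 10.6 ± 0.736 CPM and the receptor adaptor IRS2 from 233 ± 9.75 to 173 ± 5.56 CPM. BDNF, a neurotrophin, fell from 7.92 ± 0.314 to 2.75 ± 0.410 CPM and PTPRZ1, a receptor phosphatase, from 108 ± 4.41 to 29.1 ± 2.45 CPM. FOXO1 fell by 0.83 ± 0.0770, in a list of FOXO and PI3K feedback genes with 5 of 19 higher and 8 lower, while TRIM63, a ubiquitin ligase known as a FOXO target in muscle, rose by 1.71 ± 0.0573.

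Surface and matrix genes changed in both directions. MMP2, the gelatinase that cuts basement membrane collagen, stood at 140.3, 142 and 157 CPM in DMSO and 41.4, 41.4 and 47.9 CPM in VE-822, with MMP15, a membrane-bound relative, at 74.2, 75.5 and 78.3 CPM in DMSO and 27.3, 30.3 and 30.3 CPM in VE-822. SERPINA3, a protease inhibitor, fell from 12.3 ± 0.724 to 2.83 ± 0.413 CPM. SERPINE2, an inhibitor of thrombin and plasminogen activators, was among the 10 largest gains in level, at 667, 665 and 627 CPM in DMSO and 1329.7, 1341 and 1611 CPM in VE-822. In matrix proteases and their inhibitors 12 of 19 fell and 5 rose. Of collagens and laminins 9 of 23 rose and 7 fell: COL16A1 (-1.88 ± 0.0668), COL9A1 (-1.89 ± 0.111), COL9A3 (-0.72 ± 0.0461) and LAMA4 (-1.01 ± 0.0363) fell and LAMA1 rose (0.94 ± 0.0403). ECM1, a secreted matrix protein, stood at 19.3, 20.2 and 19.96 CPM in DMSO and 95.8, 99.7 and 103 CPM in VE-822. Integrins split, with the fibronectin receptor subunit ITGA5 (0.80 ± 0.0461) and the vitronectin receptor subunit ITGB3 (0.62 ± 0.0483) higher and ITGA9 (-1.11 ± 0.0497) and ITGA10 (-0.88 ± 0.0407) lower. Cytoskeletal genes rose more often than they fell, 13 of 21 of the actin list with 6 lower and 8 of 15 of the tubulin list with 2 lower; ACTB went from 1148 ± 53.5 to 1889 ± 98.9 CPM, MYH9 from 694 ± 6.65 to 1080.3 ± 83.9 CPM, TUBB6 from 49.99 ± 2.90 to 102 ± 5.73 CPM and TUBB4B from 172 ± 3.65 to 317 ± 17.6 CPM. Genes of the primary cilium were even (7 of 24 higher, 8 lower). Actin and tubulin genes have near-identical copies, so reads shared between them are uncertain.

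Of 28 genes of the cornified envelope and keratins listed, 11 could be tested, and 6 were higher and 2 lower; a low gene could be tested through VE-822 alone, so the count supports no direction. SPRR2D, a protein of the cornified envelope of skin, stood at 4.64, 5.42 and 3.97 CPM in DMSO and 47.8, 48.1 and 62.0 CPM in VE-822 (3.49 ± 0.1004), the largest rise of any protein-coding gene above the 5 CPM level used for naming; its family holds close copies, so part of its reads could belong to a neighbour. The members that fell were keratins of simple epithelium: KRT8 fell by 0.62 ± 0.0677, and KRT18, also called lower, stood at 52.6, 48.2 and 42.5 CPM in DMSO and 41.6, 40.7 and 45.2 CPM in VE-822, where the groups overlapped, and lost its call without DMSO library 1 or 2 or VE-822 library 1 or 2 (edgeR adjusted p = 0.0566 to 0.197). The defining epithelial markers stayed at most 1.24 CPM in sum, with KRT5 and KRT14 each under 0.03 CPM in both groups.

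**Figure D4:**
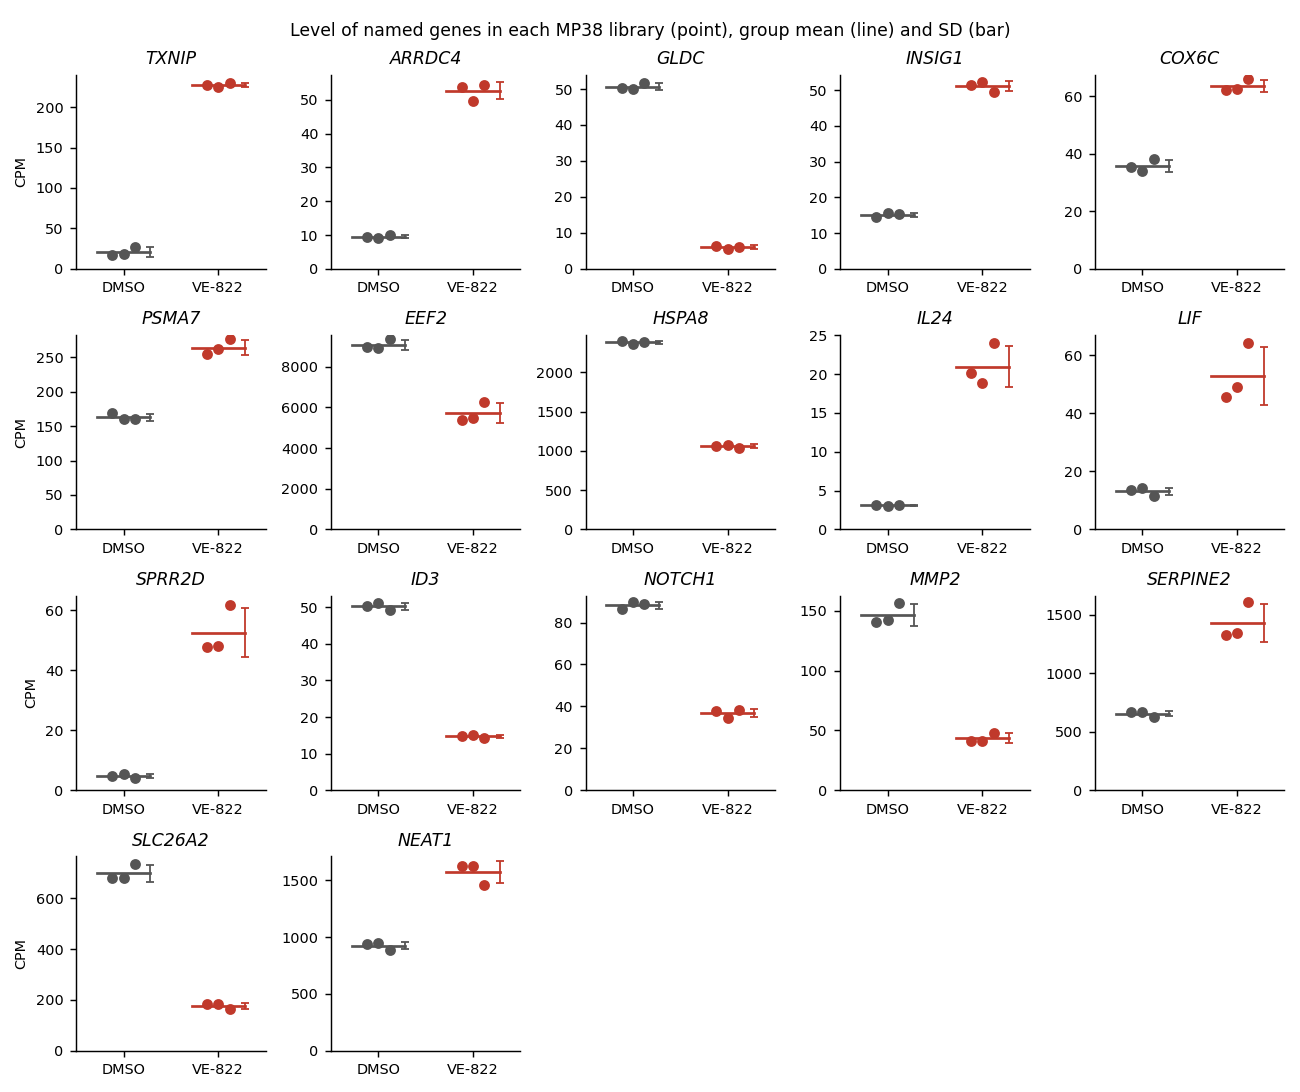
Level in CPM of 17 named genes in each of the 6 MP38 libraries (points), with the group mean (line) and SD (bar), each axis starting at 0. In every panel the VE-822 points lie wholly above or wholly below the DMSO points; in IL24, LIF, SPRR2D and SERPINE2 the highest VE-822 point is library 3.

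Pigment genes rose more often than they fell. Of 19 genes of pigment cells 12 were higher and 5 lower (median 0.47). TRPM1, a channel of melanocytes transcribed from the locus of an MITF-regulated microRNA, stood at 3.95, 4.30 and 4.39 CPM in DMSO and 24.1, 22.0 and 21.6 CPM in VE-822. PMEL, which forms the fibrils of the melanosome, was among the 10 largest gains in CPM, at 1984, 1987 and 1927 CPM in DMSO and 3040.1, 3033 and 3087 CPM in VE-822. TYRP1 rose by 1.46 ± 0.0515, MLANA by 1.30 ± 0.0458 and RAB27A, which moves melanosomes, by 0.98 ± 0.0381; TSPAN10 rose from 3.97 ± 0.233 to 17.6 ± 0.767 CPM. MITF stood at 167, 164 and 186 CPM in DMSO and 153, 153 and 124 CPM in VE-822, lowest in VE-822 library 3, and its fold change of -0.26 ± 0.0619 was -0.17 without that library and -0.11 without both libraries numbered 3. MITF lost its call with robust estimation of the spread (edgeR adjusted p = 0.0671). Other melanocyte markers, named here after their values were seen, also had lower means in VE-822. They were DCT (638 to 446 CPM), SOX10 (637 to 530 CPM) and TYR (888 to 829 CPM), while GPR143 had a higher mean (96.0 to 127 CPM). Of neural crest and stem-like genes 6 of 17 rose and 9 fell, with ZEB1 (-0.89 ± 0.0453) and SOX2 (-0.79 ± 0.0742) lower and AXL higher (0.89 ± 0.0698). Transporters held large changes in both directions. SLC26A2, the sulfate transporter, stood at 678, 678 and 736 CPM in DMSO and 186, 183 and 165 CPM in VE-822, with no overlap (-1.97 ± 0.0487), and SLC16A6, a monocarboxylate carrier, at 41.8, 42.1 and 41.5 CPM in DMSO and 161, 157 and 162 CPM in VE-822 (1.93 ± 0.0373). TRPV2, a calcium channel, rose from 81.7 ± 5.03 to 191 ± 5.08 CPM.

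Among chromatin genes, most of the listed histone variants made independently of replication rose. H2AZ1, a variant of active promoters, stood at 184, 179 and 175 CPM in DMSO and 456, 463 and 464 CPM in VE-822, CENPA, the centromeric variant, rose by 1.47 ± 0.0511 and H2AJ by 1.20 ± 0.0499. In that list 8 of 13 rose and none fell. Promoters of CENPA and H2AZ1 held the CHR element (TTTGAA), as did those of 11 of 17 reference mitosis genes. How far their rise is part of the mitosis rise was not tested. Among polycomb and DNA methylation genes 7 rose and 7 fell of 20: the methyltransferase EZH2 rose (0.54 ± 0.0369), and CBX2 and CBX8, readers of its mark, fell (-0.80 ± 0.0408 and -0.50 ± 0.0517). In the list of SWI/SNF subunits, deacetylases and BAP1 partners 6 of 22 rose and 8 fell, with 3 higher without DMSO library 1 and 3 without DMSO library 2. HDAC9, a class IIa deacetylase, rose from 5.64 ± 0.696 to 20.1 ± 0.907 CPM, and OGT, which adds GlcNAc to nuclear proteins, fell from 2523 ± 42.4 to 1857 ± 33.5 CPM. PRDM7 rose from 7.32 ± 1.15 to 59.5 ± 3.86 CPM and is a near copy of PRDM9, so its reads are uncertain. BAP1, the tumour suppressor lost in metastasising uveal melanoma, was not called (143, 147 and 136 CPM in DMSO and 135, 133 and 143 CPM in VE-822; adjusted p = 0.315); without both libraries numbered 3 it was, at -0.12 (adjusted p = 0.000744).

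Splicing factors rose more often than they fell, 15 against 6 of 28, with HNRNPC (0.54 ± 0.0399), HNRNPD (0.50 ± 0.0367), SRSF1 (0.45 ± 0.0364) and HNRNPL (0.31 ± 0.0375) the largest. Of a mixed list of nuclear long noncoding RNAs and hosts of small nucleolar RNAs, 12 of 21 were lower and 5 higher. SNHG29 stood at 944, 921 and 982 CPM in DMSO and 503, 521 and 579 CPM in VE-822 and its groups did not overlap. EPB41L4A-AS1 fell from 107 ± 2.61 to 64.0 ± 5.79 CPM. NEAT1, the scaffold of paraspeckles, rose from 926 ± 30.6 to 1572 ± 98.0 CPM, and KCNQ1OT1, an imprinted antisense RNA, fell from 142 ± 2.97 to 81.8 ± 4.75 CPM. The largest rises among long noncoding RNAs of at least 5 CPM were LINC00973 (1.55 ± 0.260 to 17.8 ± 0.923 CPM, 3.52 ± 0.0951), LINC00702 (1.11 ± 0.259 to 12.3 ± 0.567 CPM), RP3-527G5.1 (1.42 ± 0.148 to 9.20 ± 0.602 CPM), LINC01531 (12.9 ± 2.42 to 62.6 ± 3.28 CPM) and LINC01583 (3.41 ± 0.205 to 11.5 ± 1.76 CPM). The largest falls were LINC01963 (10.5 ± 0.391 to 4.47 ± 0.423 CPM), SLCO4A1-AS1 (44.0 ± 0.114 to 19.98 ± 1.64 CPM), BANCR, named for its link to BRAF in melanoma (10.02 ± 0.0245 to 4.67 ± 0.346 CPM), LINC01770 (9.74 ± 1.24 to 4.83 ± 0.513 CPM) and LINC01238 (9.52 ± 0.886 to 4.74 ± 0.115 CPM). Whether counting used strand is not given in the sources used here, so antisense genes cannot be told from their partners. Clock genes and their outputs rose in 13 of 16 members with 2 lower: the repressors NFIL3 (1.30 ± 0.0716), BHLHE41 (0.88 ± 0.0357) and NR1D1 (0.81 ± 0.0461), and ARNTL, the clock's activator, which NR1D1 normally lowers (0.77 ± 0.0768).

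Motif shares of promoters are given by direction of change. RefSeq windows matched 8744 of 10641 protein-coding genes of at least 5 CPM, and each motif was searched on both strands. The mitotic CHR element (TTTGAA) was in 33.1% of 172 genes called higher by at least 1, 17.9% of 67 called lower by at least 1, 13.4% of all 8744 and 15.2% of all RefSeq windows of that length. An NF-Y box (CCAAT) was in 60.5%, 49.3%, 44.0% and 34.6%, in the same order. Both are features of mitotic promoters, and of 17 reference mitosis genes with a window 11 held the CHR element. The AP-1 element (TGANTCA) was in 14.0% of the genes that rose, 3.0% of those that fell, 6.46% of the 8744 and 7.71% of all windows. A forkhead element (TGTTTAC) was in 4.07%, 10.4%, 3.67% and 3.42%. These shares overlap, since 1 promoter can hold several motifs, and they were not tested.

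The same contrast in 92.1 asks which of these changes differ between the lines. The difference was tested as an interaction in 1 fit of all 12 libraries over features in both tables, as the MP38 response minus the 92.1 response. The dose was adjusted in each line and is not given, so dose and line cannot be told apart. Of 24958 genes 40.9% were called: 18.8% had a higher value in MP38 (4704) and 22.1% a lower one (5510). Where the levels are at least 5 CPM in each line, 3782 of 10190 were above (37.1%) and 2358 below (23.1%), with a median difference of 0.09. With the scaling and fit restricted to such genes, 3010 were above and 3546 below and the median was -0.04; with total counts in place of scaling factors, 3950 of the 24958 were above and 6455 below. Which side held more calls therefore turned with the scaling. Without DMSO library 3 of 92.1, 6015 were above and 5897 below.

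The respiratory, TCA and proteasome lists had more members above than below under each scaling tried, as did several other lists. Some of those had larger differences, such as G1/S and licensing with 21 of 22 above and none below (median 1.67). The lowest median was that of the p53 target list, with 21 of 27 below and 2 above (median -1.25). Of 30 respiratory subunits, 20 responded more upward in MP38 than in 92.1 and none less, with a median difference of 0.36; restricted to genes of at least 5 CPM in each line, they were 19 and 3. Of 17 TCA genes 15 were above and none below (11 and none when restricted), and of 26 proteasome subunits 19 and none (15 and 1 of 25 when restricted). Autophagy, also a list of protein breakdown, had 6 of 26 above and 7 below, but 7 above and 3 below with relative log expression (RLE) scaling factors, and 4 of 23 above and 11 below when restricted. Small-subunit ribosomal proteins were the reverse, with 24 of 25 below and none above, and RPS12, for example, had a fold change of 0.30 ± 0.0602 in 92.1 against -0.46 ± 0.0489 in MP38. The ATF4 list had 14 of 24 above and none below with a median difference of 1.39, which was 0.63 without DMSO library 3 of 92.1, with 18 above and 4 below.

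Single genes differed by far more. TXNIP went from 35.4 ± 24.2 to 10.8 ± 1.40 CPM in 92.1 (-1.71 ± 0.394; SD, n = 3), a difference of 5.14 ± 0.458 (adjusted p = 2.42e-07), and ARRDC4 differed by 3.10 ± 0.228. GLDC was close to 0 in 92.1 under both treatments, from 0.0489 ± 0.00285 to 0.141 ± 0.0603 CPM, and its fold change there is not compared. INSIG1 had a wide spread in 92.1 in DMSO, at 150 ± 49.4 CPM against 134 ± 3.90 CPM in VE-822. Its fold change was -0.16 ± 0.210 there against 1.75 ± 0.0468 in MP38, a difference of 1.89 ± 0.238. TRPM1 differed by 2.20 ± 0.111, SLC26A2 by -2.00 ± 0.0820, ID3 by -1.97 ± 0.166 and NOTCH1 by -1.92 ± 0.132, all called. HSPA8 differed by -0.99 ± 0.0937 and EEF2 by -0.95 ± 0.103. The histone variants CENPA and H2AZ1 rose in MP38 and fell in 92.1 (-2.01 ± 0.0823 and -1.14 ± 0.0615), where all 20 reference mitosis genes fell too. For several genes the difference missed the threshold: MYOF had 2.13 ± 0.114 in 92.1 (difference -0.12 ± 0.127, adjusted p = 0.478), GADD45A 1.90 ± 0.1003 (difference 0.16 ± 0.153, adjusted p = 0.446), CCN1 1.39 ± 0.0570 (difference 0.04 ± 0.0841) and NFKBIZ 0.70 ± 0.0869 (difference -0.03 ± 0.0856). A difference that missed the threshold does not show that the lines respond alike. LIF rose in both lines and on this scale more in 92.1, where it started near 0 and went from 0.148 ± 0.0416 to 3.44 ± 0.108 CPM (difference -2.53 ± 0.251, adjusted p = 8.10e-07). EGR1 also rose more in 92.1, from 7.10 ± 0.573 to 52.4 ± 24.7 CPM (difference -1.62 ± 0.322, adjusted p = 7.45e-04).

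**Figure D5:**
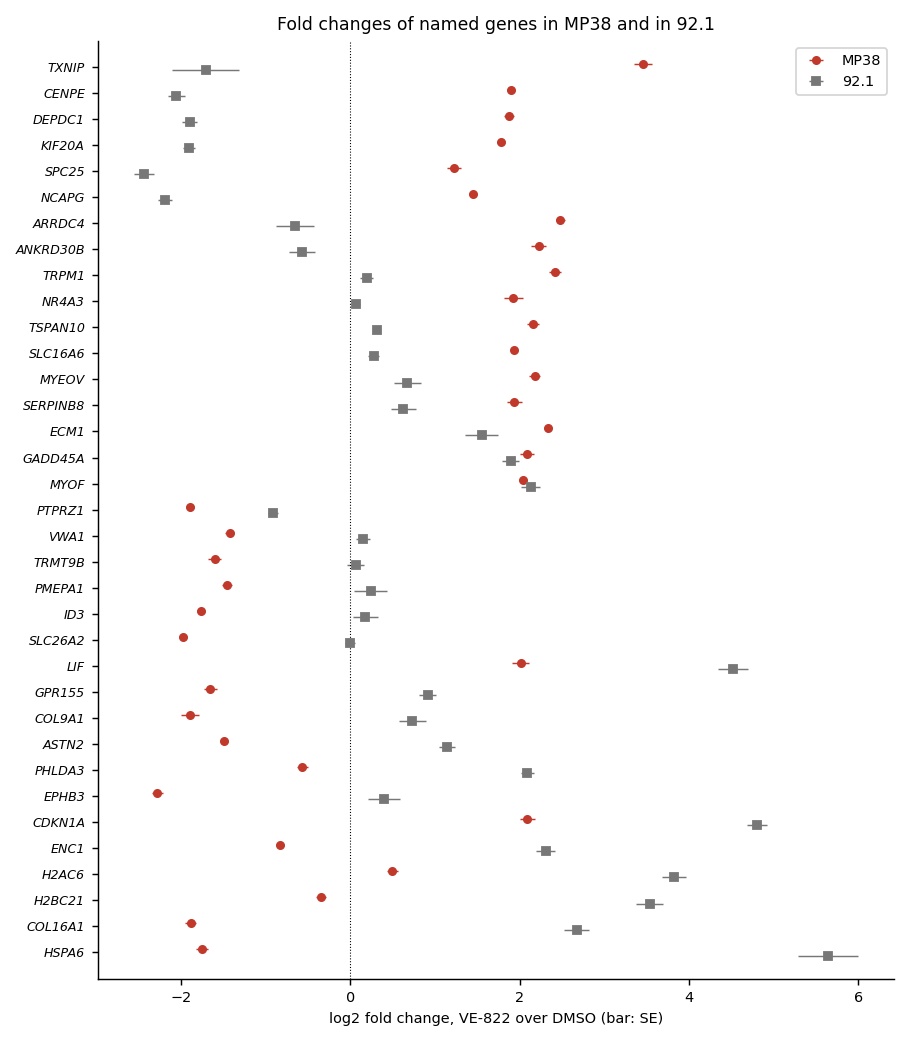
Log2 fold change with SE of named genes whose mean in 92.1 reached 1 CPM, in MP38 (circles) and 92.1 (squares), VE-822 over DMSO, ordered by the MP38 response minus the 92.1 response. TXNIP and mitosis genes such as CENPE are positive in MP38 and negative in 92.1; HSPA6 and COL16A1 are negative in MP38 and positive in 92.1; GADD45A and MYOF lie together.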

How the data were processed

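Poly(A) RNA of 3 libraries per group was sequenced. The authors deposited raw counts by gene in 1 table for each line, and FPKM tables, of which that of MP38 is used; the FPKM values equal the deposited counts divided by feature length and by the total, and are used only for levels per length. The submitters' processing notes name STAR 2.7.11a, featureCounts 2.0.6, cutadapt 4.8, FastQC 0.12.1, MultiQC 1.7 and GRCh38.p13; roles, parameters, annotation release and strand setting are not given in the sources used here. Genes passed edgeR's count filter (minimum 10, total 15), were scaled by TMM and tested by the quasi-likelihood F test of edgeR 4.0.16 in R 4.3.3, with Benjamini-Hochberg adjustment over all genes and a threshold of 0.05. The SE is the fold change over the root of F. The comparison of lines is an interaction term over 12 libraries. Class shares of counts were compared by exact permutation. Promoter windows are RefSeq's.

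Named genes are the 20 largest rises and falls among called protein-coding genes of at least 5 CPM with groups that do not overlap, the 10 largest gains and losses in CPM, up to 4 called members per list, the 5 largest lncRNA changes each way, the 6 largest differences each way from 92.1, and 9 fixed genes. Some genes chosen so are not reported here. Members and lists were chosen with earlier results of these data known. Deviations from the group means did not correlate positively between same-numbered libraries (-0.16, -0.07 and -0.24). Such deviations cancel over the libraries of a group, which constrains these correlations, so they cannot exclude pairing. Alternatives were other scaling, filters and tools (limma 3.58.1, DESeq2 1.42.0), robust estimation of the spread, a replicate block and leaving out libraries. Simulated counts used the MP38 libraries' means, with changes placed in a sample of expressed genes and tested among 21415. Of these changes, 92% of 1.5-fold and 100% of 2-fold ones were recovered. In a like simulation of the difference between lines, tested among 24958 genes, 58% of 1.5-fold and 92% of 2-fold changes were recovered.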

Additional observations from a re-analysis of the deposited data

Results flagged for a closer look

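A test of the difference between the lines, as an interaction term in edgeR with adjustment over 24958 genes, picked out 12 genes whose response to VE-822 differed most among those called in MP38 and expressed in both. On the log2 scale, the MP38 response exceeded that of 92.1 by 5.14 for TXNIP, 3.92 for CENPE, 3.74 for DEPDC1, 3.65 for KIF20A, 3.64 for SPC25 and 3.60 for NCAPG; all but TXNIP act in mitosis. It was below that of 92.1 by the signed values -7.42 for HSPA6, -3.91 for H2BC21 and -3.36 for H2AC6, both replication-type histone genes with polyadenylated forms, -3.16 for ENC1, -2.74 for CDKN1A and -2.69 for PHLDA3. CDKN1A rose in both lines, from 10.4 ± 0.743 to 44.1 ± 7.39 CPM in MP38 and from 18.4 ± 2.23 to 511 ± 52.4 CPM in 92.1. TXNIP in 92.1 had an SD of 24.2 CPM about a mean of 35.4 in DMSO, and its difference ranged from 4.46 to 5.45 over the alternatives.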

How the results depend on the processing

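The MP38 counts of 5750 higher and 5444 lower stayed within 1.5 times of themselves in every alternative run: 5783 and 5381 with RLE factors, 5085 and 6070 with library size only, 5876 and 5422 without the count filter, 4082 and 4093 among genes of at least 5 CPM, 5364 and 4899 with DESeq2, 5747 and 5407 with limma voom, 5756 and 5471 with robust estimation, and 5262 to 5569 and 4850 to 5186 when 1 library was left out. Whether equal numbers mark paired libraries is not known, so the replicate block is given as an alternative. It had 5494 higher and 5172 lower, and 4566 above and 5315 below for the difference between lines. Without both libraries numbered 3, an alternative added after the data were seen, 5616 were higher and 5238 lower. For the difference, the fit restricted to genes of at least 5 CPM in each line gave 3010 above and 3546 below, on fewer genes; leaving out 1 library gave 4473 to 6015 and 4431 to 5897. The pseudogene share, VE-822 minus DMSO, was -0.0539 percentage points and -0.0456 without mitochondrially encoded counts in the total. No named gene reversed. Calls were lost for IFI27, HSPA5, MANF, MITF and SDF2L1 with robust estimation (SDF2L1 adjusted p = 0.136), SDF2L1 with DESeq2 (adjusted p = 0.0532), GNAQ without both libraries numbered 3, KRT18 in 4 of the fits without 1 library, and NOTCH2 in 8 settings. Of the list counts, library size only moved 6 by over 1.5 times, the 5 CPM filter 12, DESeq2 2, robust estimation 2, limma voom 1 and no count filter 1. Leaving out DMSO library 1 or 2 or VE-822 library 1 or 2 moved 4 each, leaving out either library 3 moved 1, and leaving out both moved 6. Precision is limited by the 3 libraries per group.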
